A study of Mus musculus with 6 samples.

Results

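Interferon-stimulated genes are described here in the apex of 6 mouse hearts, 3 with and 3 without an αMHC-Cre transgene. The members were chosen by name: 39 genes known to be induced by type I or type II interferon, with the transcription factors that induce them, and every probe set annotated to 1 of these symbols alone. The list was drawn up with earlier results of these data known. Shares of members set beside those of all genes are therefore descriptions, and their excess was not tested. Of the 39, 37 genes had such a probe set, 61 probe sets in all, out of 18193 genes and 45101 probe sets on the array. Isg15, which shares its probe set with another annotated gene, and Ifi44 were not analysed here. All 6 animals were male mice aged 6 to 7 weeks, and each was Fog2flox/delta: of the gene Fog2, now named Zfpm2 and encoding a cofactor of GATA transcription factors, 1 allele was floxed and 1 was already deleted. The hearts without the transgene (no-Cre hearts) therefore had only 1 intact allele and were not wild type. In the other 3 (Cre hearts), Cre was driven by the αMHC promoter, which is active in cardiomyocytes, so the floxed allele can be removed in these cells and remains in the other cells of the heart. Since no mice analysed here had the transgene on a wild-type Fog2 background, what Cre does by itself and what Fog2 loss does cannot be told apart. The arrays were 1 per heart, and the question was which transcripts differ when Cre is present.

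Interferons are secreted proteins through which cells announce infection or the presence of misplaced nucleic acid. Type I interferons signal through the receptor Ifnar and assemble a complex of Stat2 with Irf9 that binds a promoter element called the ISRE, while type II interferon (Ifng) signals through Ifngr to STAT dimers that bind a different element, GAS. The induced genes encode sensors of foreign RNA and DNA, proteins that block viral replication, GTPases that attack intracellular vacuoles, parts of the antigen processing machinery, and the factors and inhibitors that feed back on the pathway. In the heart they can be expressed by cardiomyocytes, endothelial cells, fibroblasts and leukocytes, and bulk RNA does not show which.

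Among the members, 13 genes were higher with Cre past the threshold, from Ddx58 (1.47-fold) to Lgals3bp (2.70-fold) and Ifit1 (3.75-fold). Of the 37, 34 passed a filter that left out the 40% of probe sets with the lowest mean, and all 34 lay above its limit of 5.16 in both groups. Of these 34, 13 rose with Cre and 0 fell (limma, adjusted p under 0.05), where 4.2% of all 13062 genes tested were called higher, 2.04% lower and 6.24% in either direction. Counted as probe sets, 13 of 48 tested rose and 0 fell, where 3.43% of all 27022 were called higher, 1.79% lower and 5.23% in either direction. The mean was higher with Cre in 30 of the 34 genes, which held for 47.7% of all genes tested. At an unadjusted p under 0.05, 20 members were higher and 2 were lower, Dhx58 and Iigp1, where 10.5% of all genes tested were higher and 8.47% lower. Over all 37 measured members the median difference was 0.44 in log2 signal (hearts with Cre minus hearts without), with 32 higher, while over all genes measured the median was -0.01 and 48.2% were higher. In 20 of the 34 tested members every heart with Cre read above every heart without, which held for 13.2% of all genes tested, and in 2 every heart with Cre read below, against 12.9%. In such bulk RNA, more cells of a type and more RNA per cell cannot be told apart.

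**Figure D1:**
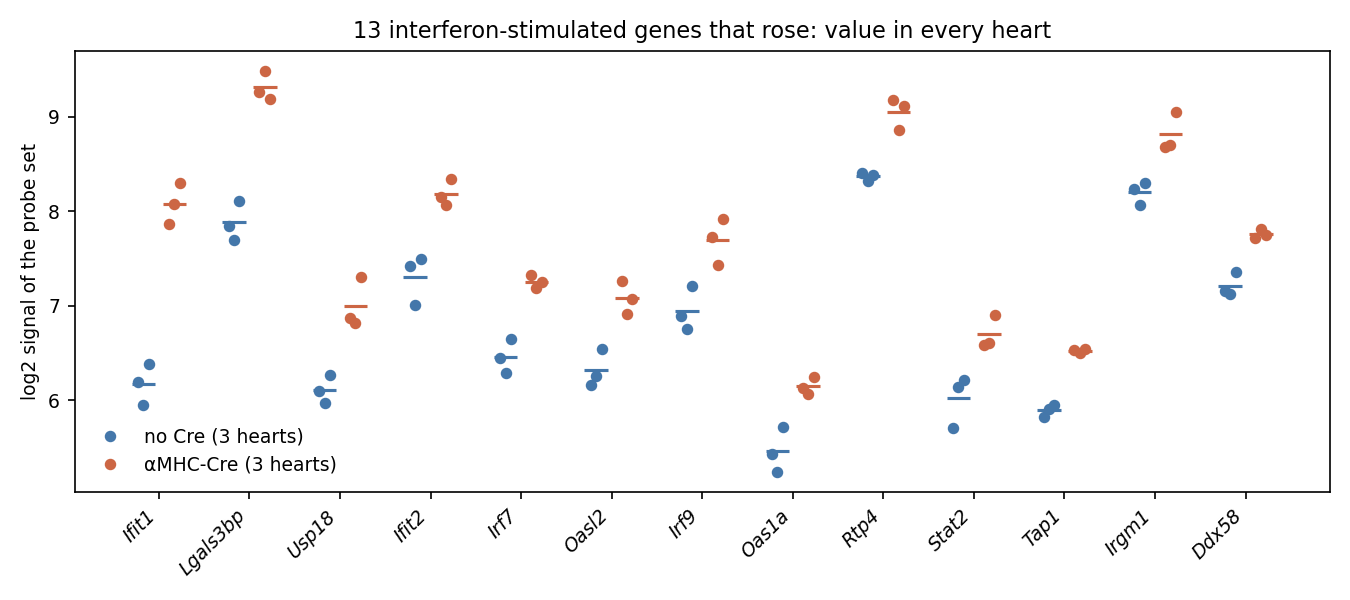
The log2 signal (vertical axis) of each of the 13 members that rose, with 1 point per heart (hearts 1 to 3 from left to right), blue without Cre and orange with Cre, and a line at each group mean. For every gene the 3 orange points lie above the 3 blue ones, with the widest separation for Ifit1 (6.17 against 8.08) and Lgals3bp (7.88 against 9.32).

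Promoters from RefSeq (assembly GRCm38.p6) were searched for 2 elements in the 250 bases before the start of the gene, on both strands. They were the ISRE core, GAAA followed by any 2 bases and a second GAAA, and the palindromic GAS element TTCNNNGAA. Matches can overlap. Promoters were found for 30 of the 39 members, some with more than 1 start. The ISRE core was present in 12 of 34 member windows (35.3%) and in 2.98% of all 32851 windows, and the GAS element in 6 (17.6%) and in 7.02%. Among members with a promoter in the table, 4 of the 11 that rose and 6 of the 16 that did not pass held the ISRE core, as did Cxcl10 and Isg15. A match describes letters in this window only. The 4 that rose are printed first, then 2 of those that did not pass and whose windows hold the same core. Capitals mark the ISRE core on either strand, and on the opposite strand it reads as TTTC, any 2 bases and TTTC.
Ifit1 (chr19:34640755-34640843, plus strand): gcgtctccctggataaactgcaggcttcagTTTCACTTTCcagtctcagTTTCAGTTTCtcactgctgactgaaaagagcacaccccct
Oas1a (chr5:120907526-120907575, minus strand): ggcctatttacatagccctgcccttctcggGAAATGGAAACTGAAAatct
Irgm1 (chr11:48871421-48871480, minus strand): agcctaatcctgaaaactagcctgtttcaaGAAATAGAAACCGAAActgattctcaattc
Stat2 (chr10:128270248-128270315, plus strand): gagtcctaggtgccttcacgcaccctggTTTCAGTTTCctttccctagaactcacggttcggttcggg
Ifit3 (chr19:34583343-34583446, plus strand): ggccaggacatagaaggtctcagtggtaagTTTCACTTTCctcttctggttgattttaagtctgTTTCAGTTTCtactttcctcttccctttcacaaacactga
Rsad2 (chr12:26456533-26456602, minus strand): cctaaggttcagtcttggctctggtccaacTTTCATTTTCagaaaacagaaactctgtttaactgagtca
In Ifit1 the core matches lie between 104 and 75 bases before the start, and in Oas1a between 20 and 4 bases before it. Ifit3 holds the same pair of 10-letter matches as Ifit1, in the same order but farther apart.

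The transcription factors of the type I complex rose, and the factor most tied to type II interferon did not pass. Irf7, the factor that amplifies type I interferon production, read 6.45, 6.28 and 6.64 in no-Cre hearts against 7.32, 7.18 and 7.25 in Cre hearts. The groups were well apart, and it rose by 0.79 ± 0.13 (SE, adjusted p 0.0089). Irf9, the DNA-binding part of the complex with Stat2, read 6.89, 6.75 and 7.21 in no-Cre hearts against 7.73, 7.43 and 7.91 in Cre hearts and rose by 0.74 ± 0.17 (adjusted p 0.036). Stat2 read 5.71, 6.14 and 6.21 in no-Cre hearts against 6.58, 6.61 and 6.90 in Cre hearts and rose by 0.68 ± 0.16 (adjusted p 0.048). Its other tested probe set differed by 0.49 without passing (adjusted p 0.11), also with no overlap between groups. Irf1, the early factor of the response to Ifng, read 8.74, 8.92 and 8.71 in no-Cre hearts against 8.65, 8.64 and 9.09 in Cre hearts. A single heart with Cre stood above the others, and the difference was 0.0037 ± 0.15 (adjusted p 0.995). Leaving out any 1 heart kept the call of Irf7 (adjusted p 0.011 to 0.041), that of Irf9 only without no-Cre heart 3 (0.028, and 0.11 at most), and that of Stat2 in no such set (0.054 to 0.15).

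Among the nucleic acid sensors 1 of 4 rose, where 4.2% of all genes tested did. Ddx58, which encodes the RNA sensor RIG-I, read 7.16, 7.12 and 7.36 in no-Cre hearts against 7.72, 7.82 and 7.75 in Cre hearts and rose by 0.55 ± 0.12 (SE, adjusted p 0.029). Its other tested probe set differed by 0.30 and did not pass (adjusted p 0.41), with overlapping groups, and the call was kept only without no-Cre heart 3 (0.034). Ifih1, the sensor of long double-stranded RNA, differed by 0.32 ± 0.14 (adjusted p 0.27), and Zbp1, a sensor of Z-form nucleic acid, by 0.30 ± 0.19 (0.48). Both had overlapping groups. Dhx58, the regulatory relative of these RNA helicases, read 7.54, 7.49 and 7.55 in no-Cre hearts against 7.09, 7.03 and 7.32 in Cre hearts. All 3 hearts with Cre were lower, the reverse of Ddx58, but the difference of -0.38 ± 0.12 did not pass (adjusted p 0.13), and its 2 dimmer probe sets were too dim to test.

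Of the genes for conjugation of the ubiquitin-like protein Isg15, the deconjugating enzyme gene rose and the ligase genes did not pass. Usp18, which removes Isg15 from proteins and also shuts down Ifnar signalling, read 6.10, 5.97 and 6.27 in no-Cre hearts against 6.87, 6.82 and 7.30 in Cre hearts. It rose by 0.88 ± 0.16 (SE, adjusted p 0.013), a 1.85-fold difference in signal, and kept its call whichever heart was left out (0.023 to 0.043). Herc6, the main Isg15 ligase of the mouse, read 6.08, 6.76 and 6.39 in no-Cre hearts against 6.58, 6.73 and 6.59 in Cre hearts, a difference of 0.22 ± 0.17 (adjusted p 0.58). Trim25, which ubiquitinates RIG-I, differed by 0.16 ± 0.17 (adjusted p 0.71), and for both genes the groups overlapped. The other tested probe sets of these ligases differed by 0.0113 to 0.32 without passing.

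Antiviral effectors held the largest change of all members. Ifit1, which binds viral RNA that lacks the host cap methylation, read 6.19, 5.95 and 6.38 in no-Cre hearts against 7.87, 8.08 and 8.30 in Cre hearts. Every heart with Cre was far above every heart without, and Ifit1 rose by 1.91 ± 0.16 (SE, adjusted p 0.00029), a 3.75-fold difference. Ifit2, its neighbour in the same gene cluster on chromosome 19, read 7.42, 7.00 and 7.50 in no-Cre hearts against 8.16, 8.06 and 8.34 in Cre hearts and rose by 0.88 ± 0.16 (adjusted p 0.013). Ifit3 lies between them in the cluster and read 7.61, 7.53 and 7.45 in no-Cre hearts against 7.96, 7.81 and 8.24 in Cre hearts. Its groups did not overlap either, but the difference of 0.47 ± 0.14 did not pass (adjusted p 0.095). The differences of the 3 Ifit genes were not tested against each other. In the promoter windows searched, Ifit1 and Ifit3 held the same ISRE core matches and Ifit2 held 0. How these matches relate to the differences was not tested.

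The oligoadenylate synthetases, which activate RNase L upon binding double-stranded RNA, were split. Oas1a read 5.43, 5.24 and 5.72 in no-Cre hearts against 6.13, 6.07 and 6.25 in Cre hearts and rose by 0.68 ± 0.14 (SE, adjusted p 0.028). Oasl2, a related synthetase, read 6.16, 6.26 and 6.54 in no-Cre hearts against 7.26, 6.91 and 7.07 in Cre hearts and rose by 0.76 ± 0.15 (adjusted p 0.019). Oas2 differed by 0.17 ± 0.12 (adjusted p 0.55), with overlapping groups. Leaving out a heart ended the call of Oas1a except without no-Cre heart 3 (adjusted p 0.018 there and up to 0.091), and that of Oasl2 except without no-Cre heart 3 or Cre heart 2 (0.018 to 0.068). Ifit1 and Ifit2 kept theirs (0.00082 to 0.0039 and 0.019 to 0.046).

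The remaining effectors did not pass. Rsad2, which encodes the antiviral enzyme viperin and is often among the most strongly induced interferon targets, read 9.03, 9.19 and 9.40 in no-Cre hearts against 9.33, 9.02 and 8.34 in Cre hearts. The low value of Cre heart 3 set most of the difference of -0.31 ± 0.23 (SE, adjusted p 0.57), which shrank to -0.03 without that heart, and the other 2 probe sets were lowest in the same heart (6.55 and 6.66). Bst2, which tethers budding virions to the cell surface, read 6.02, 5.59 and 6.08 in no-Cre hearts against 6.76, 6.11 and 6.51 in Cre hearts, a difference of 0.56 ± 0.19 (adjusted p 0.16). Ifitm3, which blocks virus entry from endosomes, differed by 0.39 ± 0.13 (adjusted p 0.14), and for both genes all 3 hearts with Cre were above the others. Samd9l differed by 0.11 ± 0.15 (adjusted p 0.80). Mx1 and Mx2, dynamin-like GTPases that block virus replication, were too dim to test, at 3.75 to 4.72 and 4.70 to 4.96 in no-Cre hearts against 4.58 to 4.80 and 4.43 to 5.09 in Cre hearts. Neither separated the groups.

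**Figure D2:**
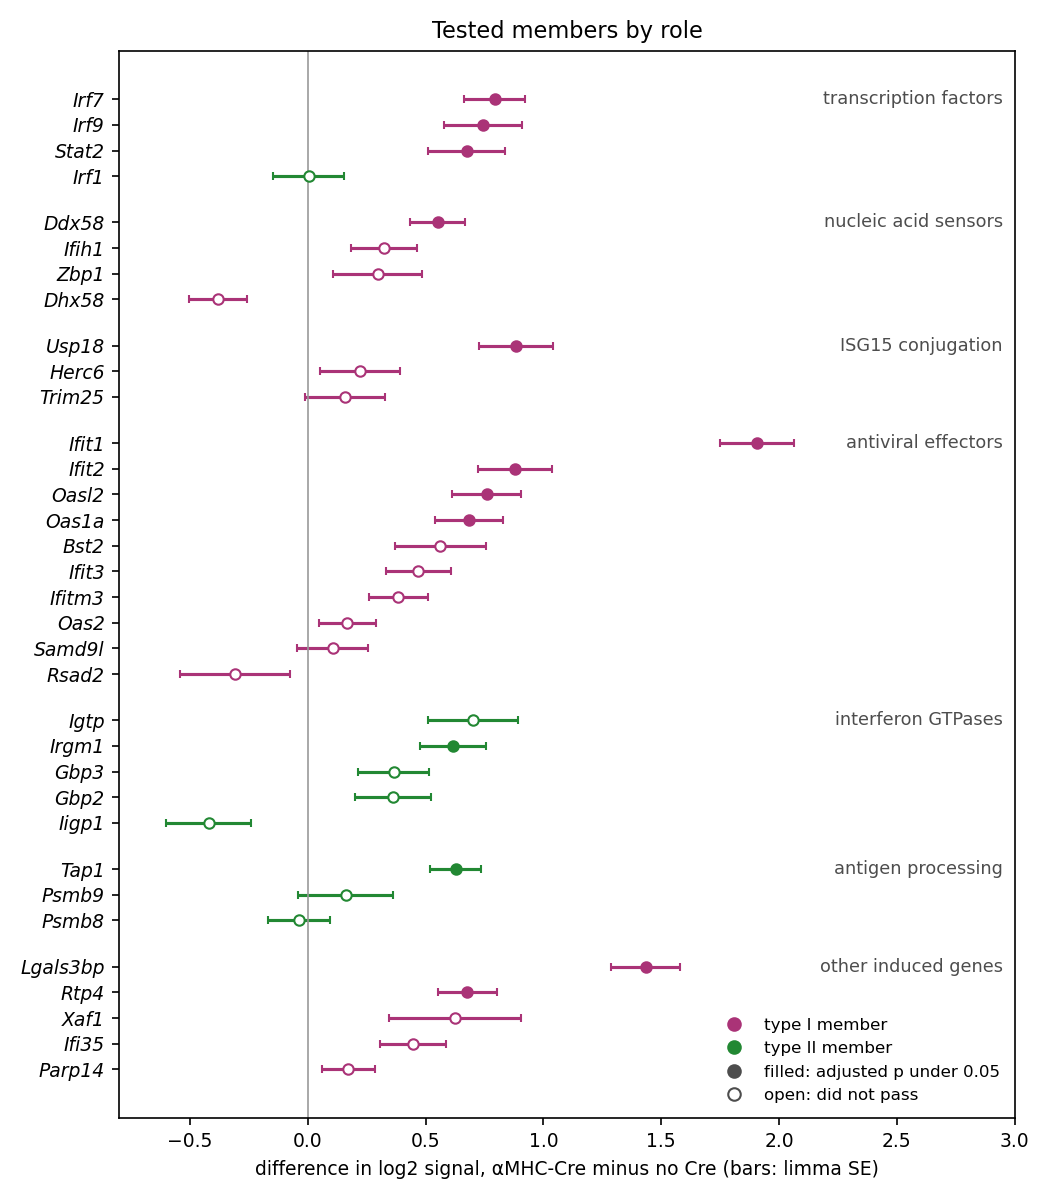
Difference in log2 signal between hearts with and without Cre (horizontal axis, bars are the limma SE) for the 34 tested members, ordered by role and coloured by interferon type, with filled points for adjusted p under 0.05. The 13 filled points lie between 0.55 (Ddx58) and 1.91 (Ifit1), and the 4 members below 0 (Dhx58, Rsad2, Iigp1 and Psmb8) are open.

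Of the interferon-induced GTPases, which act on vacuoles that hold intracellular pathogens, 1 of 5 rose, where 4.2% of all genes tested did. Irgm1, a regulator of the other immunity-related GTPases, read 8.23, 8.07 and 8.30 in no-Cre hearts against 8.69, 8.70 and 9.06 in Cre hearts and rose by 0.61 ± 0.14 (SE, adjusted p 0.038), a call lost whichever heart was left out (0.065 to 0.12). Igtp, of the same family, read 8.37, 8.59 and 8.76 in no-Cre hearts against 8.96, 9.19 and 9.68 in Cre hearts. Its groups did not overlap, but its difference of 0.70 ± 0.19 did not pass (adjusted p 0.074), and it passed in 6 of 16 alternatives. Iigp1 went the other way, at 11.42, 12.09 and 11.55 in no-Cre hearts against 11.27, 11.13 and 11.40 in Cre hearts, a difference of -0.42 ± 0.18 (adjusted p 0.26). The second Iigp1 probe set differed by -0.44 (adjusted p 0.14), so both probe sets read lower in all 3 hearts with Cre without passing. The guanylate-binding protein genes Gbp2 and Gbp3 each differed by 0.36 (adjusted p 0.28 and 0.25).

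Tap1, Psmb8 and Psmb9 stand side by side on chromosome 17, and Tap1 alone of these 3 passed. Tap1, a subunit of the transporter that brings peptides to class I molecules, read 5.82, 5.91 and 5.95 in no-Cre hearts against 6.53, 6.50 and 6.54 in Cre hearts. The spread in each group was small and Tap1 rose by 0.63 ± 0.11 (SE, adjusted p 0.012), a call lost only without Cre heart 2 among the sets with a heart left out (0.054). Its other 3 probe sets were too dim to test. The immunoproteasome subunit genes Psmb8 and Psmb9 differed by -0.04 ± 0.13 (adjusted p 0.93) and 0.16 ± 0.20 (0.76), with overlapping groups.

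Lgals3bp and Rtp4 rose among the other induced genes. Lgals3bp, a secreted glycoprotein that binds galectins, read 7.85, 7.69 and 8.11 in no-Cre hearts against 9.26, 9.49 and 9.19 in Cre hearts, and rose by 1.43 ± 0.15 (SE, adjusted p 0.00078), a 2.70-fold difference that was called whichever heart was left out (0.0014 to 0.0079). Rtp4, a receptor transporter protein, read 8.41, 8.32 and 8.39 in no-Cre hearts against 9.18, 8.86 and 9.11 in Cre hearts and rose by 0.68 ± 0.12 (adjusted p 0.015), a call lost without Cre heart 1 or 3 (up to 0.059). Ifi35 differed by 0.42 to 0.45 over its 3 tested probe sets, without overlap in any and without passing (lowest adjusted p 0.093). Xaf1, a promoter of apoptosis, read 6.78, 7.77 and 7.81 in no-Cre hearts against 8.33, 8.22 and 7.67 in Cre hearts, a difference of 0.62 ± 0.28 (adjusted p 0.29). Its other tested probe set read 9.41 in Cre heart 3 against 5.56 to 7.04 in the remaining 5 hearts. Parp14, a mono-ADP-ribosyltransferase, differed by 0.17 ± 0.11 (adjusted p 0.49). Cxcl10, the chemokine that attracts T cells, was too dim for the filter, at 3.16, 3.33 and 3.29 in no-Cre hearts against 4.20, 4.55 and 4.22 in Cre hearts. In the fit of all probe sets its difference was 1.07 ± 0.13 (adjusted p 0.052), with no overlap, at a level where small absolute changes in signal give large log2 differences.

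Set side by side, 11 of 25 tested type I members and 2 of 9 tested type II members rose, against 4.2% of all genes tested. Over the measured members the medians were 0.47 for the 27 of type I and 0.36 for the 10 of type II. The type II members that rose were Irgm1 and Tap1. Among roles, 1 of 4 sensors and 4 of 10 tested effectors rose, with medians of 0.31 over 4 measured sensors and 0.44 over 12 measured effectors. Neither pair of classes was tested against each other, and many genes of both classes respond to either interferon, so these are descriptions. Probe sets of the Ifit, Oas, Gbp and Irgm families may also bind transcripts of close relatives, which was not tested.

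The calls depended on the filter and on single hearts. Without a filter 2 of 37 members rose, Ifit1 (adjusted p 0.028) and Lgals3bp (0.038), where 0.715% of all genes were called higher. With 1 heart left out, 6 to 11 members rose: 7 without no-Cre heart 1, 7 without no-Cre heart 2, 11 without no-Cre heart 3, 6 without Cre heart 1, 7 without Cre heart 2 and 6 without Cre heart 3. In the same order, 2.92%, 2.99%, 3.53%, 2.6%, 2.19% and 2.79% of all genes tested were called higher, where all 6 hearts gave 4.2%. Irf7, Usp18, Ifit1, Ifit2 and Lgals3bp rose in all 6 of these sets.

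**Figure D3:**
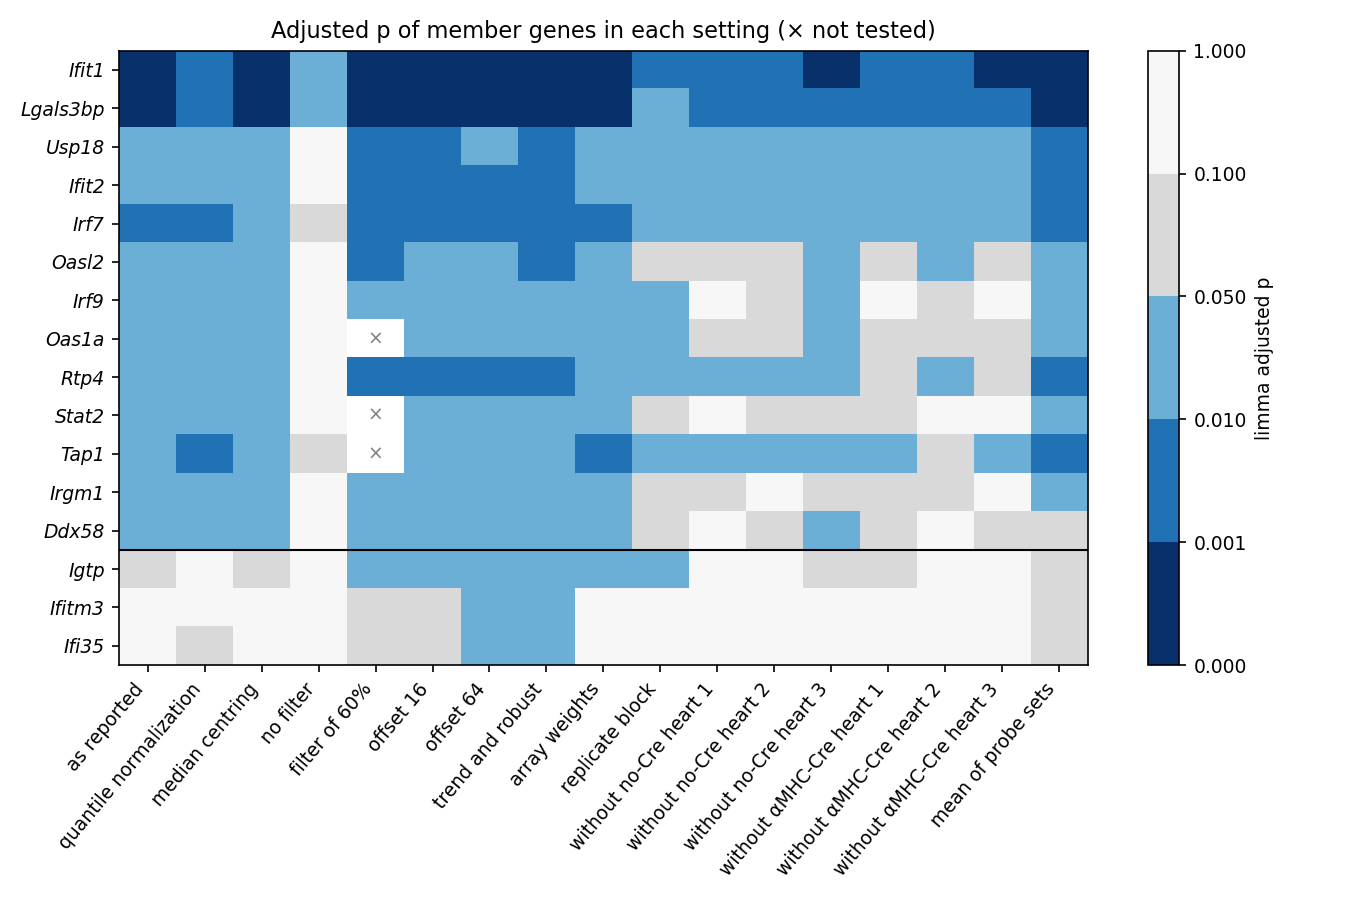
Adjusted p (colour, binned on a stepped scale) of the 13 members that rose and of 3 that passed in some alternatives (below the line: Igtp, Ifitm3 and Ifi35), in each setting (horizontal axis). Blue marks adjusted p under 0.05, grey and white mark values above it, and a cross marks a gene not tested. Ifit1 and Lgals3bp are blue in every column, and the column without a filter is blue for these 2 alone.

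The members also varied between hearts of a group. Among hearts without Cre, heart 3 was the highest for 23 of the 34 tested members (67.6%), and for 49.1% of all genes tested. Its median member stood 0.14 above the mean of its group, where the median over all genes stood 0.06 above. Among hearts with Cre, heart 2 was the lowest for 20 members (58.8%) and for 47.8% of all genes. Against the mean of the hearts without Cre, the median member stood at 0.50, 0.31 and 0.56 in Cre hearts 1, 2 and 3, and at -0.04, -0.04 and 0.14 in no-Cre hearts 1, 2 and 3. So each heart with Cre had a higher member median than any heart without, and the lowest of them was heart 2.

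The genes upstream of the members showed no call except 1. The type I interferon genes Ifnb1, Ifna4 and Ifna2 and the type II gene Ifng were all too dim to test, with means of 3.88, 3.12, 4.89 and 3.94 in no-Cre hearts against 4.42, 2.94, 4.76 and 4.01 in Cre hearts, and overlapping groups. The 6 receptor genes did not pass, with differences from -0.23 to 0.33, among them Ifnar1 at 0.09 ± 0.13 (SE), Ifnar2 at 0.23 ± 0.11, Ifngr1 at 0.10 ± 0.15 and Ifngr2 at -0.23 ± 0.18. The kinase genes Jak1, Jak2 and Tyk2 differed by -0.16 ± 0.13, -0.11 ± 0.13 and 0.07 ± 0.13, and none passed. None of 9 tested genes for the induction of interferon, such as the adaptor gene Mavs and the kinase gene Tbk1, passed (limma, with 1 lower and 2 higher at an unadjusted p under 0.05). Of 6 inhibitors 1 rose, where 4.2% of all genes tested did. This was Adar, the RNA-editing enzyme that keeps self RNA from activating the sensors. Adar read 7.11, 7.12 and 7.42 in no-Cre hearts against 7.91, 7.79 and 7.91 in Cre hearts, a rise of 0.66 ± 0.13 (adjusted p 0.020). Its call was kept only without no-Cre heart 3 (0.017, and up to 0.075).

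Interferon-induced genes outside the members gave few calls. Of 38 tested type I genes 3 rose and 0 fell (limma, with 12 higher and 1 lower at an unadjusted p under 0.05), with a median of 0.19. They were Ifi27l2a, which rose by 1.20 ± 0.19 (SE, adjusted p 0.0079), Ifi27 by 0.70 ± 0.16 (0.041) and Ube2l6, the conjugating enzyme for Isg15, by 0.56 ± 0.13 (0.047). Ifi27l2a read 8.00, 7.40 and 7.90 in no-Cre hearts against 9.21, 8.69 and 8.99 in Cre hearts, and of these 3 it alone was called whichever heart was left out (0.011 to 0.030). Ifi27 lost its call in each such set and was called in 7 of 16 alternatives in all. Ube2l6 kept its call without no-Cre heart 1 (0.038) but was called in only 2 of 15 alternatives. Of 20 tested type II genes 1 rose and 0 fell (limma, with 6 higher and 1 lower at an unadjusted p under 0.05), with a median of 0.16. The gene that rose was Psmb10, the remaining immunoproteasome subunit gene, by 0.76 ± 0.15 (adjusted p 0.024). Psmb10 kept its call only without no-Cre heart 1 or Cre heart 1 (0.042 to 0.071 over all sets). For these 2 induced lists the calls were thus 3 of 38 and 1 of 20, against 4.2% of all genes tested. At an unadjusted p under 0.05 (limma), 12 of the 38 and 6 of the 20 were higher, against 10.5%. Pooled with the receptors, kinases, induction genes and inhibitors above, 5 of 83 tested genes rose. In the reported setting this pooled share of calls was near the 4.2% of all genes tested, and the count changed with the processing, as given below. At an unadjusted p under 0.05 (limma), 22 of the 83 were higher and 4 lower, against 10.5% and 8.47% of all genes tested. In 25 of them every heart with Cre read above every heart without, against 13.2%. Every heart with Cre read below in 4, against 12.9%.

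**Figure D4:**
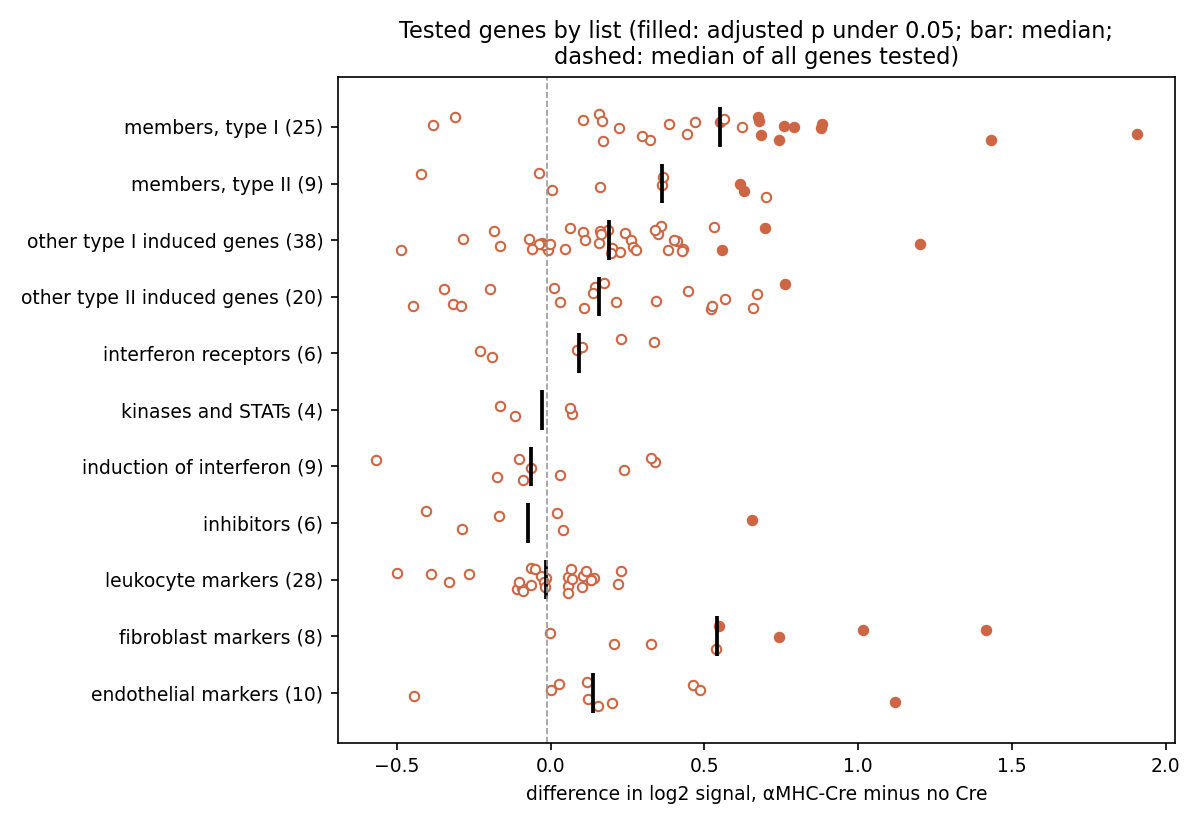
Difference in log2 signal with Cre (horizontal axis) of each tested gene by list, with the number tested in brackets, filled points for adjusted p under 0.05, a bar at the median of the list and a dashed line at the median of all genes tested. The members of type I lie farthest to the right among the interferon lists (median 0.55 over those tested), and the leukocyte markers centre on -0.02.

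Markers of cells that may carry the members were measured in the same arrays. Of 49 measured markers of leukocytes 28 were bright enough to test, and 0 rose and 0 fell (limma, with 0 higher and 3 lower at an unadjusted p under 0.05, which 10.5% and 8.47% of all genes tested passed). The summed unlogged signal of the 49 was 6522 to 7693 in the hearts without Cre and 6866 to 7573 in those with Cre, so the ranges overlapped. Macrophage and monocyte markers made up most of it (4562 to 5717 without Cre and 4950 to 5569 with Cre). The sum also held the markers too dim to test, so it says little of the other leukocytes. The pan-leukocyte marker Ptprc differed by 0.07 (adjusted p 0.85), the macrophage markers Adgre1 and Csf1r by 0.06 and -0.01, and Siglech, a marker of plasmacytoid dendritic cells, by -0.50 (0.077). Over the 11 tested macrophage and monocyte markers, differences ran from -0.33 (Cd14) to 0.22 (Cd68), both without overlap between groups and without passing. Of 12 measured T and NK cell markers 8 were too dim to test, among them Cd3g, Cd3d and Ncr1. The 4 tested, Cd3e, Cd8a, Cd8b1 and Prf1, differed by 0.10, -0.09, -0.02 and -0.10, and none passed. Of 8 fibroblast markers 4 rose (Col1a1, Lum, Dpt and Mfap5), where 4.2% of all genes tested did, and their summed signal was 11446 to 13479 without Cre and 16516 to 18116 with Cre. Dpt lost its call whichever heart was omitted, and Mfap5 without Cre heart 2. Of 10 endothelial markers Vwf alone rose (sums of 5489 to 6631 and 6920 to 7420), against the same 4.2%. Of 9 markers of cardiomyocytes at large 0 passed (limma, with 0 at an unadjusted p under 0.05), with sums of 101577 to 103194 and 98188 to 102651. Markers of atrial cardiomyocytes were split: of 3 tested 2 rose (Myl7 and Nppa), where 4.2% of all genes tested did. The sum over 5 measured was 3189 to 4717 without Cre and 15548 to 16214 with Cre, and Nppa made up most of it in both groups. Myl7, the atrial myosin light chain, read 4.34, 3.39 and 3.42 in no-Cre hearts against 10.72, 11.42 and 10.92 in Cre hearts and rose by 7.30 ± 0.27 (adjusted p 6.4e-06). It passed the filter only through the Cre hearts. Nppa, the natriuretic peptide gene of the atria that stressed ventricles also express, read 12.07, 11.54 and 11.40 in no-Cre hearts against 13.72, 13.68 and 13.69 in Cre hearts and rose by 2.03 ± 0.17 (adjusted p 0.00032). Myl4 differed by -0.02 ± 0.13 (adjusted p 0.96), and Sln and Bmp10 were too dim to test. Fibroblast and endothelial sums, and an atrial sum that was mostly Nppa, thus moved in the same direction as the members. Their part in the members' rise was not tested. The 9 cardiomyocyte markers read 12.34 to 13.88 as means without Cre, so the defining markers of heart muscle were present. The brightest of them lay near the array maxima of 13.97 to 14.00, as did Nppa with Cre at 13.68 to 13.72. Differences may be compressed at this level.

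Array medians ranged from 5.72 to 5.81, and arrays correlated at 0.980 to 0.987 within and 0.964 to 0.973 between groups across the tested probe sets. The 2 probe sets of Zfpm2 moved in opposite directions, at -0.88 ± 0.13 and 1.68 ± 0.12 (SE), and which part of the transcript each one measures was not determined, so they do not by themselves check the deletion. The titles call the hearts biological replicates, and 3 per group limit the precision of every value.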

How the data were processed

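Total RNA of the heart apex (Trizol, then RNeasy, per the labels' protocols) was hybridised to 1 Affymetrix array per heart. For each probe set the authors deposited a log2 signal per array, which the submitters' processing notes credit to PLIER. The PLIER settings, and whether arrays were normalized to each other, were not given in the sources used here. The log base was taken as 2 from the array maxima of 13.97 to 14.00. Each array holds 749 to 902 values below 0, so differences of dim probe sets are unsteady, and no detection calls were used.

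Of 45101 probe sets, 64 controls and the 18015 with the lowest means (40% of the others) were left out, and 27022 were tested. No further normalization was applied, since array medians differed by less than 0.1. The comparison used R 4.3.3 and limma 3.58.1 (a linear model moderated by eBayes, two-sided, no covariates, Benjamini-Hochberg over all tested probe sets, threshold 0.05), after a test on simulated data. The platform annotation gave 34945 probe sets 1 symbol, 932 several and 9160 none, and only the first were named. The probe set with the highest mean stands for a gene.

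The members, their classes and the other lists were chosen with earlier results of these data known. Every member is accounted for: those that passed get all heart values, and the others, foremost the up to 3 with the largest differences in each role, get their difference or, for some, also their heart values. Bst2, a member, and Tcf4 were left out of the leukocyte counts and sums. Alternatives were quantile normalization, median centring, no filter, a 60% filter, 16 or 64 added to the unlogged signal, trend and robust variances, weights per array, a block for the replicate number, the mean of a gene's probe sets, other thresholds and leaving out each heart.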

Additional observations from a re-analysis of the deposited data

How the results depend on the processing

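No tested alternative turned the sign of a member that rose, and 0 members were lower past the threshold in any. Without a filter the counts were 275 probe sets, 2 members (also 2 as probe sets), 0 other pathway genes, 2 type I, 0 type II, 0 sensor and 1 effector genes. With 1 heart left out they ranged from 600 to 1075 probe sets, 6 to 11 members (also as probe sets), 1 to 3 other pathway genes, 5 to 10 type I, 0 to 1 type II, 0 to 1 sensor and 2 to 4 effector genes, with medians over tested members of 0.47 to 0.62 (type I, 0.55 with all hearts), 0.27 to 0.47 (type II, 0.36), 0.25 to 0.36 (sensors, 0.31) and 0.44 to 0.64 (effectors, 0.52). At an adjusted p under 0.01 there were 529 of 27022 probe sets and 3 of 34 members, and under 0.10 there were 2220 probe sets. The replicate numbers did not pair the hearts (correlations of -0.06, 0.21 and -0.19 between deviations of same-numbered hearts). With the replicate block, 909 probe sets, 10 members, 3 other pathway genes and 0 sensors were called, where 3.0% of all genes tested were called higher. The mean of probe sets gave 8 other pathway genes, and the share over all genes was not computed for it. Adding 64 to the signal gave 10 of 83, where 5.37% of all genes tested were called higher. These counts of pathway genes took calls in either direction. With 64 added, medians over tested members were 0.37 for type I, 0.19 for sensors and 0.34 for effectors. Small changes of dim members were at the limit of what 3 arrays a group allow.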

Other observations

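Besides Tap1 and Psmb10, which rose, 6 genes of antigen presentation by class I and class II molecules and the proteasome activator gene Psme1 showed differences of both signs, and these 7 did not pass. The class I genes H2-K1 and B2m differed by 0.66 ± 0.19 (SE, adjusted p 0.089) and 0.52 ± 0.19 (0.18), with every heart with Cre above every heart without. H2-K1 read 10.22, 10.64 and 10.43 in no-Cre hearts against 11.04, 11.46 and 10.77 in Cre hearts. The class II genes H2-Aa, H2-Ab1 and H2-Eb1 and the invariant chain gene Cd74, which mark antigen-presenting cells, differed by -0.35, -0.32, -0.20 and -0.29, with overlapping groups. Psme1, a subunit of the proteasome activator, read 11.28, 11.11 and 11.34 in no-Cre hearts against 10.83, 10.81 and 10.75 in Cre hearts, a difference of -0.45 ± 0.12 (adjusted p 0.062) that passed in 7 of 16 alternatives. Trafd1, a feedback inhibitor of innate signalling, differed by -0.49 ± 0.13 (adjusted p 0.068) and passed in 5 of 16. The genes of this paragraph were picked with their values known.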
